A study of Mus musculus with 39 samples.

Results

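The 30 genes described here encode proteins that make cholesterol or control how much of it a cell makes, takes up and moves. They were taken by symbol from a fixed list, out of 46517 genes in each deposited table, and all 30 were found and passed the filter on low counts in both tissues. They comprise 8 enzymes from acetyl-CoA to the isoprenoids, 11 enzymes from squalene to cholesterol, 6 genes of the machinery around the transcription factor SREBP2, and 5 genes of sterol transport and uptake control. Their transcripts were read by RNA sequencing in 19 livers and 20 triceps surae muscles (a muscle group of the calf) of female mice aged 25 weeks, of a mixed C57BL/6 and 129 strain, after 4 h without food. Every mouse lacked both copies of the insulin gene Ins1 (Ins1-/-). The Ins2+/- mice also lacked 1 copy of Ins2, the remaining insulin gene, and the Ins2+/+ mice kept both. Diet B (Research Diets D12330) held 5.56 kcal per g, with fat giving 58%, carbohydrate 26% and protein 16% of the calories. Diet A (LabDiet 5LJ5) held 4.68 kcal per g, with fat giving 25%, carbohydrate 55% and protein 20%. Each group of genotype and diet held 5 livers and 5 muscles, except that Ins2+/+ mice on diet B had 4 livers, numbered 2 to 5. The diets differ in maker and in composition as a whole, so an effect of fat cannot be told apart from one of another ingredient. The labels number the samples of a group as replicates without naming animals, so p-values measure the spread between these samples.

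Cholesterol is built from acetyl-CoA through mevalonate, the isoprenoids, squalene and lanosterol, and the liver is a main site of this synthesis. SREBP2, which Srebf2 encodes, is held in the endoplasmic reticulum with its escort Scap by the retention proteins Insig1 and Insig2 while sterols are plentiful. When sterols run low, SREBP2 and Scap move to the Golgi, where the proteases of Mbtps1 and Mbtps2 free the active factor, which raises transcription of the synthesis enzymes. In liver, feeding and insulin are known to raise the pathway and dietary cholesterol to lower it.

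SREBP2 acts at sterol regulatory elements near gene starts, together with the factor NF-Y, which binds CCAAT, and with Sp1, which binds GGGCGG. The stretches before the start of 6 members are shown as examples of 3 roles: Hmgcs1, Mvk and Mvd for the mevalonate steps, Ebp and Dhcr7 for the late sterol steps, and Insig1 for the machinery that retains SREBP2. They come from the RefSeq promoter table of build GRCm38.p6, run 5′ to 3′ on the strand of the gene and end before the first annotated start. Capitals mark CCAAT and the sterol element TCACNCCAC on either strand.
Dhcr7 at chr7:143822917-143823144, plus strand: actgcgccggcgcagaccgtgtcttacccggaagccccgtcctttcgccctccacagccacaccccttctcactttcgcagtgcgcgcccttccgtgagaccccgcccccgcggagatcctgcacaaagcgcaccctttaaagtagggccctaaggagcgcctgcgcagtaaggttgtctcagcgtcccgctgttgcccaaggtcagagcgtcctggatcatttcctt
Mvk at chr5:114444019-114444268, plus strand: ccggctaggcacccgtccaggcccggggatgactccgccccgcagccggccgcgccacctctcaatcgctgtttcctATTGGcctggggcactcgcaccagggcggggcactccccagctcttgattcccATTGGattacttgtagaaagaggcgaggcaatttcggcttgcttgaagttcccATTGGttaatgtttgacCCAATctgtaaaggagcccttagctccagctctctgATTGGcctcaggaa
Mvd at chr8:122443423-122443672, minus strand: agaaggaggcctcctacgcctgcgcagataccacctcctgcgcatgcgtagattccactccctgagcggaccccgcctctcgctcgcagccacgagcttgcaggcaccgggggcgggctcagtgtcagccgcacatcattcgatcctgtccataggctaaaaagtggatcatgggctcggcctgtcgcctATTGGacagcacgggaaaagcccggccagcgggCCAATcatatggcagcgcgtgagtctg
Ebp at chrX:8193513-8193762, minus strand: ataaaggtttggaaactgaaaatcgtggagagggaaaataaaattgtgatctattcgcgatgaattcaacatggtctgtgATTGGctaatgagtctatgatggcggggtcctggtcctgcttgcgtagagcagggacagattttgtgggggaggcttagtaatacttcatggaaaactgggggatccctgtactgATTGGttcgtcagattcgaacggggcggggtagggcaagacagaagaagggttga
Hmgcs1 at chr13:119690101-119690350, plus strand: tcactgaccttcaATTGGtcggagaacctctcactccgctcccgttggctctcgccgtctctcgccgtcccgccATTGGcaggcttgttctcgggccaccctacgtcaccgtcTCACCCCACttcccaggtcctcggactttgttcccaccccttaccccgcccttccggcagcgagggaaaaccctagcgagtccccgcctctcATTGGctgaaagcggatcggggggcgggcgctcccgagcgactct
Insig1 at chr5:28071162-28071362, plus strand: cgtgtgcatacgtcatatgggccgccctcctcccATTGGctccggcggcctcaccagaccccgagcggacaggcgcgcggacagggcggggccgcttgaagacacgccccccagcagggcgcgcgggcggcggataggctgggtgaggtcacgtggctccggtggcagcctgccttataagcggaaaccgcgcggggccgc

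Promoter windows, from 250 bases before to 50 bases after a start, were matched for 25 of the 30 members. A member was counted by the window nearest its annotated gene start alone, while the share of all windows takes in every window of the table. The shares of members and of all windows are therefore not measured alike. TCACNCCAC was in the windows of 1 of the 25, Hmgcs1, and in 1.2% of all 32851 windows of the table. Other forms of the sterol element were not searched for, so a window without this match may still hold one. CCAAT was in those of 20 of the 25 members (80.0%) and in 37.4% of all windows, and GGGCGG in those of 21 (84.0%) and in 35.7% of all. Both strands were searched, and no match of TCACNCCAC overlapped one of CCAAT. The Mvk stretch shown holds 5 matches of CCAAT and the Dhcr7 stretch none, and both genes are among those with the lowest p in the diet comparison in Ins2+/- livers. A match is a run of letters and was not tested for binding.

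Estimated counts per library summed to 1289225 to 54249818 in liver (median 4847998) and to 1060469 to 13709576 in muscle (median 4080492). Levels are given as normalised CPM, which are counts per 1000000 of the library after TMM scaling within a tissue. Differences are log2 ratios ± SE from edgeR (quasi-likelihood F-test), and p-values carry a Benjamini-Hochberg adjustment across every gene in the fit. Genes with an adjusted p under 0.05 count as called. The biological coefficient of variation was 19.1% in liver and 51.8% in muscle, so muscle comparisons were the less precise. Hepatocyte markers (6 of 6 found) summed to 95924 to 146210 CPM in the livers, and skeletal muscle markers to 56653 to 112750 CPM in the muscles, as the labels say. Livers Ins2+/- B 2 and B 3 resembled each other more closely than other libraries of one group do: thinned to 1000000 counts, their chi-square divided by its degrees of freedom was 1.12, and the next closest pair had 2.25. Over the 30 members they differed by a median of 0.073 on the log2 scale. They were also the deepest livers, with 54249818 and 48823121 counts, against 12562612 in Ins2+/- A 4, the next deepest. The labels do not name animals, and whether these 2 livers came from different mice was not tested. For the liver comparisons that B 2 and B 3 enter, counts or medians over the members are also given with both summed into 1 library. Liver Ins2+/+ B 5 stood furthest from its group: that ratio was 18.89 to 19.67 with the group's other livers, and at most 9.80 for any other pair of livers of 1 group. Islet hormone transcripts (Iapp, Gcg, Sst and Ppy, 5 CPM or more together) were present in 6 of 19 livers and 9 of 20 muscles. In bulk tissue, fewer cells of a type and less RNA per cell cannot be told apart.

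Liver held more transcript of nearly the whole pathway than muscle. Of the 30 members, 27 were called higher in liver and 2 lower (29 of 30; background 77.8% of 13714 genes called). The median log2 ratio of liver over muscle was 2.78 over the members and -0.04 over all genes tested. All 11 enzymes from squalene to cholesterol were called higher in liver, with a median of 3.42, and 7 of the 8 earlier enzymes, where the median over the 8 was 2.07.

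Ebp, the sterol isomerase, stood furthest apart. It had 141 to 206 CPM in the livers (median 168) and 1.69 to 14.2 CPM in the muscles (median 4.38), on a scaling shared by all 39 libraries. Its log2 ratio was 5.02 ± 0.14 (adjusted p = 4.5e-28, edgeR), and no liver overlapped a muscle. Tm7sf2, a sterol reductase, followed among the enzymes at 4.60 ± 0.22, with 59.0 to 134 CPM in liver and 0.289 to 9.54 CPM in muscle. Msmo1, which oxidises methyl groups of early sterols, differed by 4.22 ± 0.25 and Sc5d, a sterol desaturase, by 4.03 ± 0.18. At the other end of the sterol branch Fdft1, the squalene synthase, had 71.8 to 131 CPM in liver and 21.5 to 92.5 CPM in muscle, a log2 ratio of 0.64 ± 0.11 with overlapping ranges.

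Ggps1 was the 1 enzyme with more transcript in muscle. It makes geranylgeranyl diphosphate, which leaves the sterol route for protein prenylation. It had 2.94 to 5.80 CPM in the livers (median 4.27) and 3.37 to 22.5 CPM in the muscles (median 10.003), a log2 ratio of -1.37 ± 0.20 (adjusted p = 1.0e-07). Mbtps2, the intramembrane protease of SREBP activation, was lower in liver as well, by -0.63 ± 0.13 (adjusted p = 3.1e-05), while its partner protease Mbtps1 was higher in liver by 0.82 ± 0.09. In the annotation the span of Ggps1 overlaps that of Arid4b on the opposite strand and the span of Mbtps2 that of Yy2. The library kit does not mark strand. Whether exons overlap was not checked, so how far the values of both are affected is uncertain.

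Of the SREBP2 machinery, Insig1 differed most between the tissues, at 150.02 to 337 CPM in liver and 4.29 to 47.2 CPM in muscle, a log2 ratio of 3.70 ± 0.14. Scap followed with 2.80 ± 0.12, and Insig2 and Srebf2 with 1.67 ± 0.11 and 1.61 ± 0.17. Among the transport genes, Tmem97, which binds Npc1, and Stard4, a sterol carrier of the cytosol, were higher in liver by 4.70 ± 0.24 and 4.52 ± 0.16. Npc1 and Npc2, which export cholesterol from lysosomes, were higher by 2.20 ± 0.12 and 0.95 ± 0.09. Mylip, a ubiquitin ligase that sends lipoprotein receptors to degradation, was the 1 member not called, with 8.13 to 18.99 CPM in liver and 4.32 to 28.4 CPM in muscle and a log2 ratio of -0.19 ± 0.14 (adjusted p = 0.198).

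**Figure D1:**
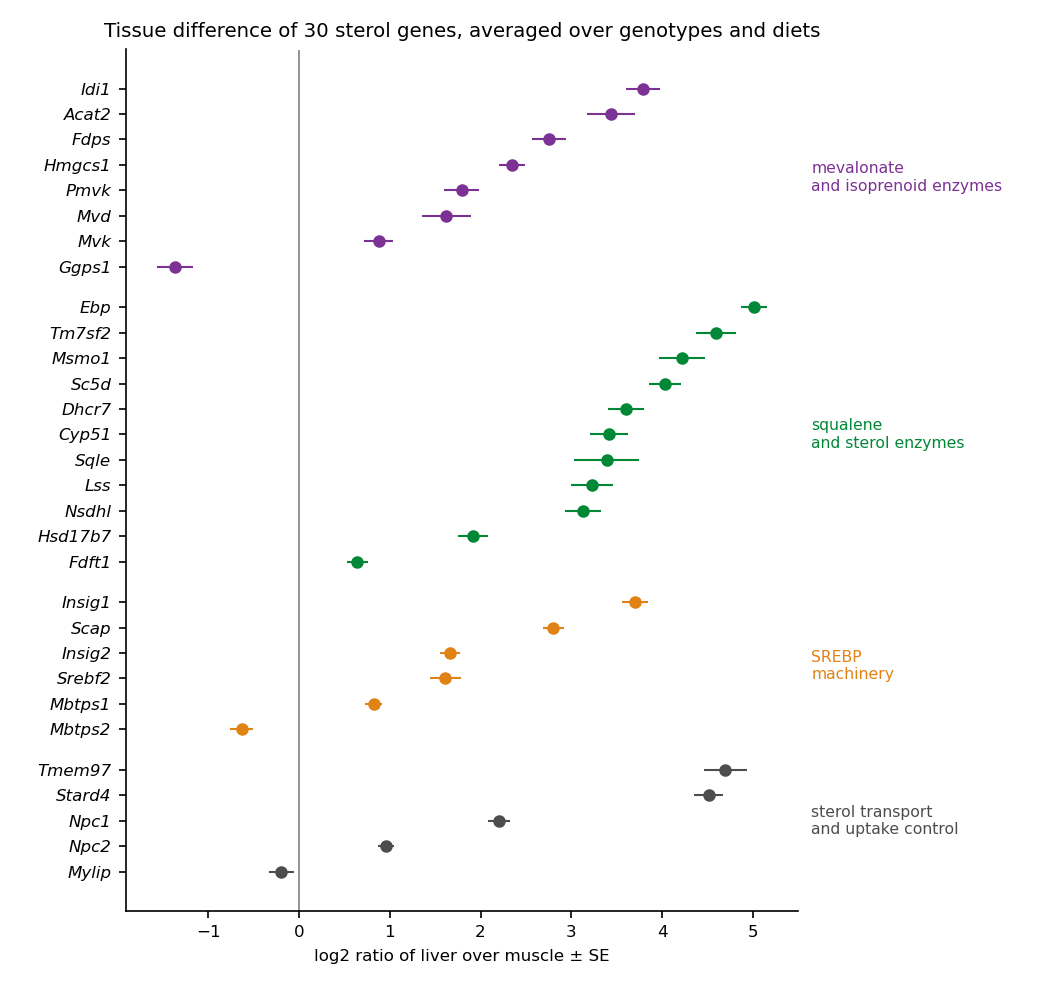
Log2 ratio of liver over muscle (x axis, ± SE) for the 30 members (rows, by role), averaged over genotypes and diets in 19 livers and 20 muscles. Points right of 0 are higher in liver: 27 members lie there, while Ggps1 (-1.37), Mbtps2 (-0.63) and Mylip (-0.19) lie left of it.

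Diet B was set against diet A in the livers of Ins2+/- mice, and here 18 of the 19 synthesis enzymes had lower estimates on diet B. Of the 30 members 25 were lower on diet B, with a median log2 ratio of -0.29, against 50.2% of all genes lower and a median of 0.00 over all genes. Over the 19 enzymes the median was -0.76. The test was passed by 1 member, Dhcr7 (1 of 30; background 0.0425% of 11777 genes called). At an unadjusted p below 0.05 stood 18 members (60.0%; 16 lower and 2 higher), against 12.3% of all genes.

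Dhcr7 encodes the reductase that makes cholesterol from its last precursor. It had 51.7, 44.6, 38.0, 52.0 and 59.9 CPM in Ins2+/- livers on diet B 1 to 5, against 76.9, 74.7, 105, 88.5 and 95.0 CPM in Ins2+/- livers on diet A 1 to 5. Every liver on diet B lay below every liver on diet A. Dhcr7 fell to 49.2 ± 8.30 CPM on diet B, against 87.9 ± 12.5 CPM on diet A (SD, n = 5 each), a log2 ratio of -0.84 ± 0.15 (adjusted p = 0.0435, edgeR). The call was lost when livers B 2 and B 3 were summed (-0.78, adjusted p = 0.171) and after leaving out livers with islet transcripts (-0.89, adjusted p = 0.168). It was also lost without any 1 of Ins2+/- livers B 2, B 3, B 4, A 3, A 4 and A 5 or Ins2+/+ livers B 2, B 3, B 4 and A 5, with an adjusted p of up to 0.178. Over all alternatives the log2 ratio lay between -1.01 and -0.76.

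No other member passed this test, and the next lowest p belonged to Msmo1. Msmo1 had 86.5, 83.7, 81.7, 63.2 and 112 CPM in Ins2+/- livers on diet B, against 134, 141, 219, 155 and 178 CPM in Ins2+/- livers on diet A. Every liver on diet B was again below every liver on diet A, with a log2 ratio of -0.95 ± 0.20 (adjusted p = 0.0776). Sqle, the squalene epoxidase and a rate-limiting step of the sterol branch, had 38.8, 35.3, 33.0, 42.6 and 59.4 CPM in Ins2+/- livers on diet B, against 40.9, 69.6, 139, 73.5 and 100.3 CPM in Ins2+/- livers on diet A. Liver 1 on diet A lay among the livers on diet B, and the other 4 lay above them all. Its log2 ratio was -1.02 ± 0.26 (adjusted p = 0.111).

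The other steps of the sterol branch gave lower values on diet B too, and none of them passed the test. Cyp51, which takes a methyl group off lanosterol, averaged 67.7 ± 21.05 CPM in Ins2+/- livers on diet B and 125 ± 34.4 CPM in those on diet A, a log2 ratio of -0.89 ± 0.24 (adjusted p = 0.123). The groups overlapped, since liver B 5 had 105 CPM and liver A 1 had 76.7 CPM. Nsdhl, a sterol dehydrogenase, averaged 48.3 ± 12.9 CPM on diet B and 81.0 ± 18.4 CPM on diet A (-0.76 ± 0.23). Ebp had 146, 147, 144, 145 and 161 CPM in Ins2+/- livers on diet B, against 187, 161, 191, 191 and 194 CPM in those on diet A, and the highest liver on diet B lay just below the lowest on diet A. Its log2 ratio was the smaller one of -0.31 ± 0.08 (adjusted p = 0.126). For Tm7sf2, Lss (the lanosterol cyclase), Fdft1, Sc5d and Hsd17b7 (a ketosteroid reductase) log2 ratios lay between -0.36 and -0.16.

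In the mevalonate and isoprenoid steps 7 of 8 enzymes were lower on diet B, with a median of -0.80. Mvk, the mevalonate kinase, had 12.9, 11.9, 10.1, 8.48 and 16.4 CPM in Ins2+/- livers on diet B, against 17.4, 15.5, 28.5, 20.1 and 21.9 CPM in those on diet A. Liver B 5 lay above the lowest liver on diet A and the other 4 below it, and the log2 ratio was -0.78 ± 0.18 (adjusted p = 0.085). Idi1, which interconverts the isoprene units, had 93.4, 109, 94.8, 102 and 192 CPM on diet B, against 160.0, 166, 362, 213 and 257 CPM on diet A. Liver B 5 stood apart from the other 4 on its diet, and the log2 ratio was -0.97 ± 0.25 (adjusted p = 0.112).

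Fdps, the farnesyl diphosphate synthase, had 91.1, 80.0, 66.4, 136 and 133 CPM in Ins2+/- livers on diet B, against 156, 150.2, 262, 150.5 and 201 CPM in those on diet A. Its groups did not overlap, at a log2 ratio of -0.87 ± 0.27 (adjusted p = 0.188). Mvd (mevalonate diphosphate decarboxylase) differed by -0.97 ± 0.30, Hmgcs1 (the synthase of HMG-CoA) by -0.81 ± 0.27, Pmvk (phosphomevalonate kinase) by -0.66 ± 0.23 and Acat2 (the thiolase of the first step) by -0.40 ± 0.14, while Ggps1 had a ratio above 0, 0.25 ± 0.21. For 4 members, Dhcr7, Ebp, Fdps and Msmo1, every Ins2+/- liver on diet B lay below every one on diet A, which held for 0.968% of all genes (114 of 11777).

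Of the machinery genes 4 of 6 were lower on diet B, with a median of -0.11, and of the transport genes 3 of 5, with a median of -0.17. Whether they differed from the enzymes was not tested. Srebf2 had a log2 ratio of -0.27 ± 0.13 and Scap of -0.21 ± 0.11, while Insig1 (-0.11 ± 0.18), Mbtps2 (-0.11 ± 0.14) and Mbtps1 (0.00 ± 0.09) lay nearer to 0. Insig2 had 120.0, 176, 182, 254 and 241 CPM in Ins2+/- livers on diet B, against 81.0, 187, 151, 117 and 146 CPM in those on diet A. Its ranges overlapped, and the log2 ratio of 0.52 ± 0.23 did not pass (adjusted p = 0.375). Npc1 had 191, 236, 234, 198 and 135 CPM on diet B, against 154, 124, 156, 119.9 and 114 CPM on diet A. Liver B 5 lay within the range of diet A and the other 4 on diet B above it, with a log2 ratio of 0.57 ± 0.14 (adjusted p = 0.103).

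Stard4 had 135, 138, 132, 128 and 146 CPM in Ins2+/- livers on diet B, against 165, 131, 203, 175 and 175 CPM in those on diet A, a log2 ratio of -0.32 ± 0.12 (adjusted p = 0.287). Liver A 2 was the 1 liver on diet A within the range of diet B. Npc2, Tmem97 and Mylip differed by -0.21 ± 0.11, -0.17 ± 0.15 and 0.23 ± 0.18. By their annotated spans Npc1 overlaps Rmc1, Cyp51 overlaps Akap9, Fdft1 overlaps Ctsb and Mvd overlaps Gm20388 on the opposite strand. Fdps overlaps Gm43738 and Tm7sf2 overlaps Vps51. Overlap of exons was not checked here either, so how far the values of these 6 members are affected is uncertain too.

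**Figure D2:**
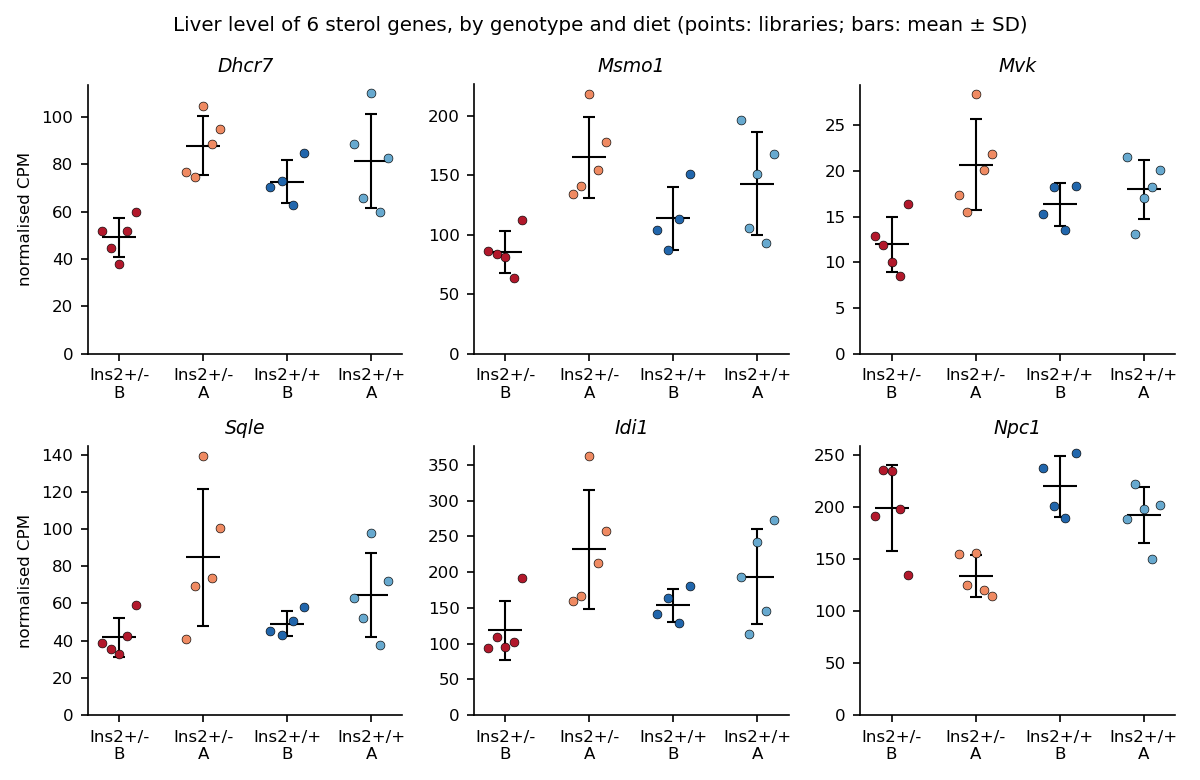
Normalised CPM (y axis) of Dhcr7, Msmo1, Mvk, Sqle, Idi1 and Npc1 in each liver, by genotype and diet (x axis; points are libraries, bars are the mean ± SD, n = 5, or 4 for Ins2+/+ B). For Dhcr7 and Msmo1 all Ins2+/- livers on diet B lie below all Ins2+/- livers on diet A, and Npc1 has its lowest mean, 134 CPM, in Ins2+/- livers on diet A.

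The number of calls in Ins2+/- livers depended on the test, and the direction of the enzymes did not. DESeq2 called 8 members (Cyp51, Dhcr7, Ebp, Idi1, Msmo1, Mvk, Npc1 and Sqle), with 1.12% of all genes called. Limma-voom with sample weights called 14, which were those 8 and Acat2, Fdps, Hmgcs1, Mvd, Nsdhl and Pmvk, with 4.7% of all genes called. Of the 19 enzymes 18 were lower on diet B in every alternative run, with a median between -0.885 and -0.629. With livers B 2 and B 3 summed the median of the enzymes was -0.69, and without livers that held islet transcripts it was -0.81. Without liver Ins2+/- B 5 the quasi-likelihood test called 9 members and 0.69% of all genes.

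The position of single livers showed which ones lay low. For each liver the deviation of each enzyme from its median over the 19 livers was taken on the log2 scale, with 0.5 CPM added, and the median over the 19 enzymes was used. It was -0.38, -0.56, -0.53, -0.35 and -0.05 in Ins2+/- livers on diet B 1 to 5, and 0.03, 0.00, 0.55, 0.26 and 0.41 in those on diet A. On diet B 4 livers were low and liver B 5 was near the middle, while A 3 and A 5 were the highest on diet A. It was -0.05, 0.00, -0.18 and 0.16 in Ins2+/+ livers on diet B 2 to 5, and 0.30, -0.14, 0.63, -0.28 and 0.23 in those on diet A. Liver Ins2+/+ A 3 held the highest value of 9 of the 19 enzymes and Ins2+/- A 3 that of 7, while Ins2+/- B 3 held the lowest value of 8 and Ins2+/- B 4 that of 4.

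**Figure D3:**
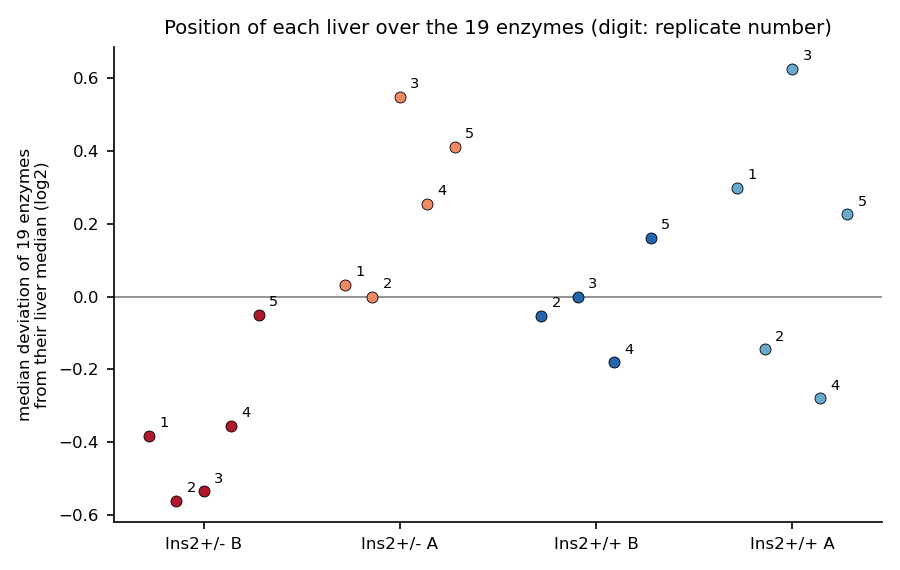
Median deviation of the 19 enzymes from their median over all livers (y axis, log2) for each liver (points), by genotype and diet (x axis). Ins2+/- livers on diet B lie at -0.56 to -0.05 and those on diet A at 0.00 to 0.55, while both Ins2+/+ groups lie on both sides of 0.

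In Ins2+/+ livers the medians for the same change of diet were nearer to 0. No member was called by edgeR (0 of 30; background 0.0425% of 11777 genes), and DESeq2 called 0 and limma-voom 0. At an unadjusted p below 0.05 stood 1 member, against 738 of 11777 genes. Of the 30 members 21 were lower on diet B, with a median of -0.15, and of the enzymes 17 of 19, with a median of -0.21. As each liver was left out, 17 to 23 members and 13 to 19 enzymes were lower, with an enzyme median of -0.316 to -0.058. The fewest came without liver Ins2+/+ A 3, 17 of 30 members (median -0.045) and 13 of 19 enzymes (median -0.058). Without liver Ins2+/+ B 5, 23 members (median -0.193) and 19 of 19 enzymes (median -0.3) were lower. No member was lower without overlap (0 of 30; 0.951% of all genes). Stard4 had the lowest p, with 137, 145, 127 and 166 CPM in Ins2+/+ livers on diet B, against 201, 151, 246, 174 and 191 CPM in Ins2+/+ livers on diet A. Liver B 5 was the 1 liver on diet B above the lowest on diet A, and the log2 ratio was -0.42 ± 0.13 (adjusted p = 0.419).

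Dhcr7 in Ins2+/+ livers had 70.4, 73.0, 62.7 and 84.7 CPM on diet B, against 88.8, 66.0, 110.2, 60.0 and 82.6 CPM on diet A, and the livers on diet B lay within the range of diet A (-0.17 ± 0.16). Msmo1 had 104, 87.3, 113 and 151 CPM in Ins2+/+ livers on diet B, against 197, 106, 151, 92.7 and 168 CPM in those on diet A (-0.33 ± 0.21). Sqle had 45.4, 43.0, 50.3 and 58.0 CPM on diet B, against 62.8, 52.3, 97.7, 37.7 and 72.1 CPM on diet A (-0.39 ± 0.28). The livers on diet A were the more spread for all 3 genes, with liver A 4 below the other 4 each time. Idi1 had 141, 164, 129 and 180.5 CPM in Ins2+/+ livers on diet B, against 193, 113, 243, 145 and 273 CPM in those on diet A (-0.33 ± 0.26). Insig1 and Insig2 had estimates above 0, 0.34 ± 0.19 and 0.40 ± 0.25, and so had Npc1 (0.19 ± 0.15), with 237, 200.4, 189 and 251 CPM in Ins2+/+ livers on diet B, against 188, 222, 198, 149.9 and 202 CPM in those on diet A.

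Whether the diet difference depended on genotype was tested as an interaction. No member was called by edgeR (0 of 30; background 0.0% of 11777 genes), 4 stood at an unadjusted p below 0.05 (4.80% of all genes did), and DESeq2 called 0 and limma-voom 0. The 4 were Dhcr7 (-0.68 ± 0.22), Mvk (-0.65 ± 0.26), Msmo1 (-0.62 ± 0.28) and Ebp (-0.29 ± 0.12), each with an adjusted p of 0.981. The estimate was below 0 for 25 of 30 members, with a median of -0.26 against 0.01 over all genes. With livers B 2 and B 3 summed it was below 0 for 25 members, with a median of -0.23. The diet difference is not shown to differ between Ins2+/- and Ins2+/+ livers.

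Averaged over the genotypes, 23 members were lower on diet B (median -0.20), among them 18 of 19 enzymes (median -0.46). No member was called by edgeR (0 of 30; background 0.238% of 11777 genes), and 18 stood at an unadjusted p below 0.05, as 12.8% of all genes did. DESeq2 called 7 members and 1.64% of all genes, and limma-voom 10 members and 2.48% of all genes. With livers Ins2+/- B 2 and B 3 summed, 23 members were lower, with a median of -0.19. The lowest p belonged to Dhcr7 (-0.50 ± 0.11, adjusted p = 0.0531) and Msmo1 (-0.64 ± 0.14, adjusted p = 0.0537). Stard4 (-0.37 ± 0.09), Npc1 (0.38 ± 0.10), Sqle (-0.70 ± 0.19) and Idi1 (-0.65 ± 0.18) followed.

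**Figure D4:**
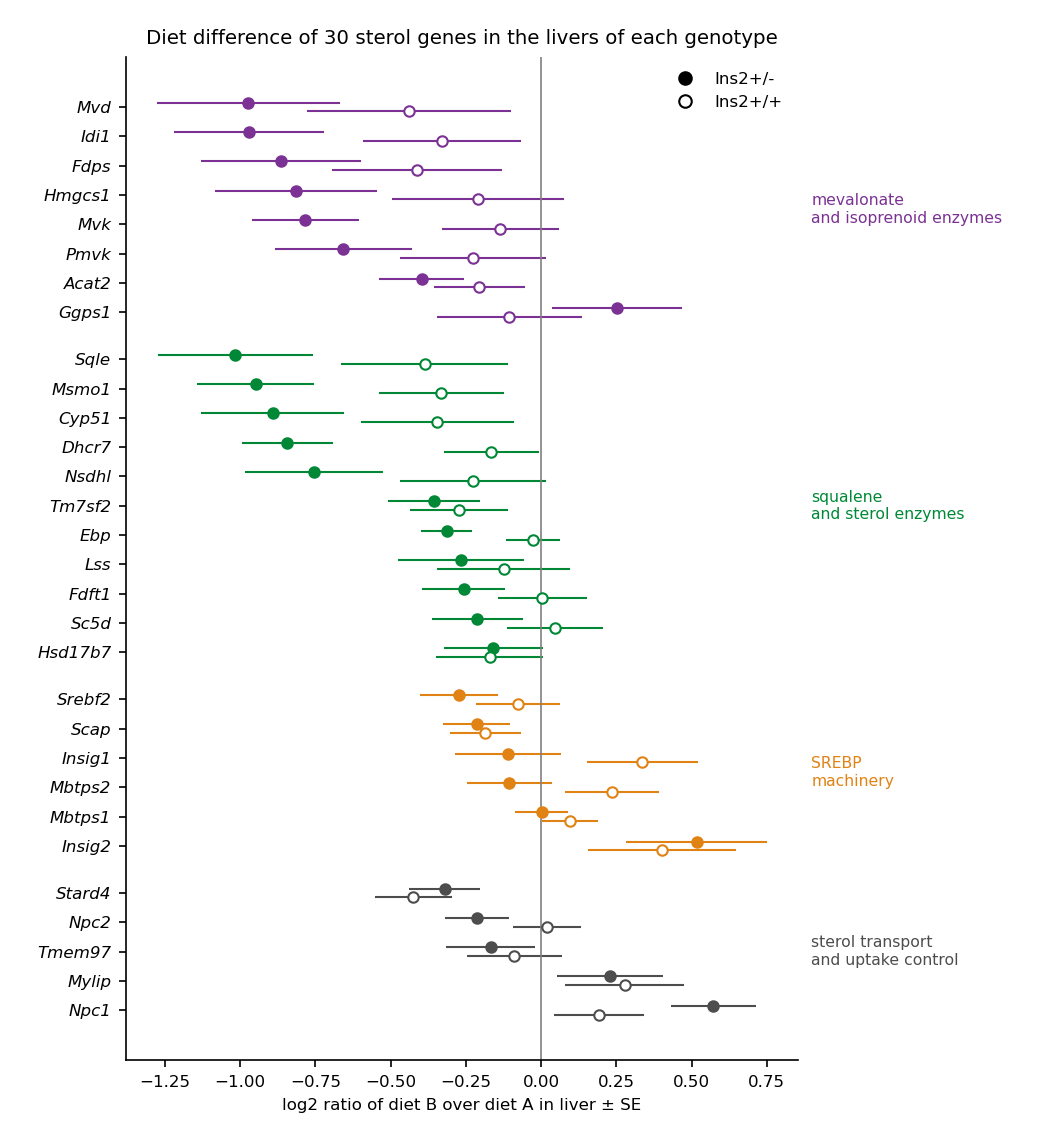
Log2 ratio of diet B over diet A in liver (x axis, ± SE) for the 30 members (rows, by role), in Ins2+/- (filled) and Ins2+/+ (open) mice. In Ins2+/- livers 18 of 19 enzymes lie left of 0, down to -1.02 for Sqle, and Npc1 (0.57) and Insig2 (0.52) lie furthest right.

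The genotypes were compared on each diet. On diet B, 28 of 30 members were lower in Ins2+/- than in Ins2+/+ livers (median -0.25, against 0.00 over all genes), among them 18 of 19 enzymes. No member passed edgeR's test (0 of 30; background 0.0% of 11777 genes called), 6 stood at an unadjusted p below 0.05 (20.0%, against 4.25% of all genes), and DESeq2 called 0 and limma-voom 1, Dhcr7, with 0.314% of all genes called. For 3 members, Dhcr7, Pmvk and Sc5d, every Ins2+/- liver lay below every Ins2+/+ liver, which held for 1.1% of all genes (129 of 11777).

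Dhcr7 gave the values above in Ins2+/- livers on diet B, 38.0 to 59.9 CPM, against 62.7 to 84.7 CPM in Ins2+/+ livers on diet B, a log2 ratio of -0.57 ± 0.16 (adjusted p = 0.936). Sc5d had 194, 197, 183, 228 and 235 CPM in Ins2+/- livers, against 300.5, 266, 247 and 383 CPM in Ins2+/+ livers (-0.53 ± 0.16). Pmvk had 26.3, 19.3, 15.8, 23.3 and 26.3 CPM in Ins2+/- livers, against 29.7, 31.9, 30.2 and 39.1 CPM in Ins2+/+ livers (-0.59 ± 0.24). Ins2+/+ liver B 5 was the highest for each of these 3 genes. Insig1 had 199.6, 178, 173, 250.4 and 243 CPM in Ins2+/- livers, against 297, 341, 229.9 and 344 CPM in Ins2+/+ livers, where liver B 4 lay among the Ins2+/- livers (-0.54 ± 0.18). Ebp had 189, 186, 151 and 182 CPM and Mvk 15.3, 18.2, 13.5 and 18.3 CPM in Ins2+/+ livers, both with 1 or more livers among the Ins2+/- values given above (-0.25 ± 0.09 and -0.47 ± 0.19). With livers B 2 and B 3 summed, 27 of 30 members were lower, and without livers that held islet transcripts 27. Without liver Ins2+/+ B 5, 26 were lower, with a median of -0.17.

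On diet A the genotypes did not differ in a common direction. Of the members 13 were lower and 17 higher in Ins2+/- livers, with a median of 0.05. No member was called by edgeR (0 of 30; background 0.00849% of 11777 genes called), 1 stood at an unadjusted p below 0.05 (10.1% of all genes did), and DESeq2 called 0 and limma-voom 0. No member was lower without overlap (0 of 30; 0.926% of all genes). The member with the low p was Npc1, with 154, 124, 156, 119.9 and 114 CPM in Ins2+/- livers on diet A, against 188, 222, 198, 149.9 and 202 CPM in Ins2+/+ livers on diet A. Liver A 4 of the Ins2+/+ group lay within the Ins2+/- range, and the log2 ratio was -0.52 ± 0.14 (adjusted p = 0.23).

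Npc2, the soluble partner of Npc1, had 92.5, 101, 71.0, 88.5 and 79.2 CPM in Ins2+/- livers on diet A, against 78.2, 62.9, 78.3, 75.4 and 78.2 CPM in Ins2+/+ livers on diet A (0.22 ± 0.11). Insig2 had 81.0, 187, 151, 117 and 146 CPM in Ins2+/- livers, against 138, 126, 213, 168 and 225 CPM in Ins2+/+ livers (-0.35 ± 0.24). Sc5d had 235, 179.8, 241, 245 and 304 CPM in Ins2+/- livers, against 251, 262, 416, 259 and 259 CPM in Ins2+/+ livers (-0.27 ± 0.15). The ranges overlapped for all 3 genes, as they did for Sqle (0.38 ± 0.26) and Stard4 (-0.19 ± 0.12), whose values on diet A stand above. Averaged over the diets, 22 members were lower in Ins2+/- livers, with a median of -0.09 and no call by edgeR (0 of 30; background 0.00849% of 11777 genes). With livers Ins2+/- B 2 and B 3 summed, 20 of 30 were lower, with a median of -0.083. Without livers that held islet transcripts, 15 of 30 were lower, with a median of -0.017. Sc5d (-0.40 ± 0.11, adjusted p = 0.285), Npc1 (-0.33 ± 0.10) and Insig1 (-0.32 ± 0.13) had the lowest p of the 6 members at an unadjusted p below 0.05. At that p stood 1136 of 11777 genes, and DESeq2 called 0 members and limma-voom 0.

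Markers of other cells were set beside these values. Kupffer cell markers (6 of 6 found) summed to 384 to 642 CPM in Ins2+/- livers on diet B and to 436 to 710.3 CPM in those on diet A, and to 297 to 443 CPM in Ins2+/+ livers on diet B and to 342 to 449 CPM in those on diet A. Hepatocyte markers summed to 112820 to 124270 CPM in Ins2+/- livers on diet B and to 95924 to 146210 CPM in those on diet A, and the ranges overlapped for both lists. Islet markers (5 of 5 found) reached 3642 CPM in liver Ins2+/- B 1 and 287 CPM in Ins2+/- A 2. Erythroid markers (5 of 5 found) summed to 264 to 521 CPM in Ins2+/- livers on diet B and to 310.4 to 574 CPM in those on diet A, and to 146 to 286 CPM in Ins2+/+ livers on diet B and to 192 to 680.1 CPM in those on diet A. On diet B 5 of 5 were higher in Ins2+/- than in Ins2+/+ livers (median 0.91, 3 at an unadjusted p below 0.05). In Ins2+/+ livers 5 of 5 were lower on diet B (median -0.999, 4 at that p). Between the genotypes on diet B, 7 of 7 pancreatic acinar markers were higher in Ins2+/- livers (median 4.49, 5 at that p). The same held for 5 of 5 islet markers (median 4.50, 4 at that p), while 4 of 5 stellate and fibroblast markers were lower there (median -0.33, 2 at that p). Of the Kupffer cell markers 6 of 6 were higher in Ins2+/- livers averaged over the diets (median 0.32, 6 at that p). Of the stellate and fibroblast markers 4 of 5 tested were higher on diet B averaged over the genotypes (median 0.28, 3 at that p). None of these markers was called in these comparisons. At an unadjusted p below 0.05 stood 500 of 11777 genes for genotype on diet B and 738 for diet in Ins2+/+ livers. For the averaged comparisons 1136 genes did for genotype and 1513 for diet. The part of other cell types in the sterol gene values was not tested, apart from the values without the livers that held islet transcripts.

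Neighbouring pathways gave no call in Ins2+/- livers for diet B against diet A. Of 18 genes of SREBP1 and fatty acid synthesis 13 were lower on diet B, with a median of -0.12 against -0.76 for the sterol enzymes, led by Pcyt2 (-0.31 ± 0.12) and Fasn (-0.64 ± 0.30). In Ins2+/+ livers 14 of these 18 were lower on diet B, with a median of -0.39 against -0.21 for the sterol enzymes. Averaged over the genotypes 15 were lower, with a median of -0.23 and 8 at an unadjusted p below 0.05, as were 1513 of 11777 genes. Between the genotypes 15 were lower in Ins2+/- livers on diet B (median -0.21) and 17 on diet A (median -0.23), and no gene of the list was called in these comparisons. Of 22 genes of cholesterol efflux, storage and bile acid synthesis 9 were lower on diet B in Ins2+/- livers, with a median of 0.06. Among them Cyp7a1, the rate-limiting enzyme of bile acid synthesis, had a log2 ratio of -0.91 ± 0.26 (adjusted p = 0.156), and Stard5, a sterol carrier, one of 0.40 ± 0.11 (adjusted p = 0.147). Of 17 genes on other branches of the mevalonate pathway 8 were lower there, with a median of 0.01, and the mitochondrial thiolase Acat1 had 0.44 ± 0.15. Of 13 genes of sterol-regulated degradation and retention 8 were lower there, with a median of -0.04.

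Muscle gave no call for any member in any comparison within the tissue, by edgeR, DESeq2 or limma-voom. For genotype averaged over the diets (0 of 30; background 0.0% of 11959 genes called), 18 members were higher in Ins2+/- muscles, with a median of 0.05. At an unadjusted p below 0.05 stood 1 member, against 387 of 11959 genes. For diet averaged over the genotypes (0 of 30; background 0.00836% of 11959 genes), 18 were higher on diet B, with a median of 0.04. At an unadjusted p below 0.05 stood 3 members, against 454 of 11959 genes. The genotypes gave 0 calls and 0 members at an unadjusted p below 0.05 on diet B (background 0.0%) and 0 and 0 on diet A (background 0.0%). The diets gave 0 calls and 2 members at that p in Ins2+/- muscles (background 0.00836%) and 0 and 1 in Ins2+/+ muscles (background 0.0%), and the interaction gave 0 and 0 (background 0.0%). Of all 11959 genes, 543 stood at that p for genotype on diet B and 200 on diet A. For diet 577 did in Ins2+/- and 299 in Ins2+/+ muscles, and for the interaction 387. Within groups the members had a median coefficient of variation of 47.6% in muscle.

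Sqle had the lowest p for genotype in muscle. It had 2.40, 20.2, 3.02, 43.0 and 1.75 CPM in Ins2+/- muscles on diet B and 3.40, 19.9, 0, 0 and 5.74 CPM in those on diet A, against 2.91, 1.68, 15.0, 1.95 and 2.94 CPM in Ins2+/+ muscles on diet B and 2.07, 2.08, 4.47, 0.585 and 1.34 CPM in those on diet A. Of the 20 muscles 4 stood above the rest, Ins2+/- B 2 and B 4, Ins2+/- A 2 and Ins2+/+ B 3. The same 4 held the highest sums of 5 islet hormone transcripts, 9164, 19170, 6312 and 3824 CPM, against 0.728 to 1918 CPM in the other muscles. Muscle Ins2+/- B 4 also held 23545 CPM of acinar enzyme transcripts. The log2 ratio of Ins2+/- over Ins2+/+ was 1.49 ± 0.72 (adjusted p = 0.999), and it was 0.42 without the muscles that held islet transcripts. A count of 0 allows up to 0.219 to 2.83 CPM, depending on the depth of the muscle library, which covers counting error only.

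**Figure D5:**
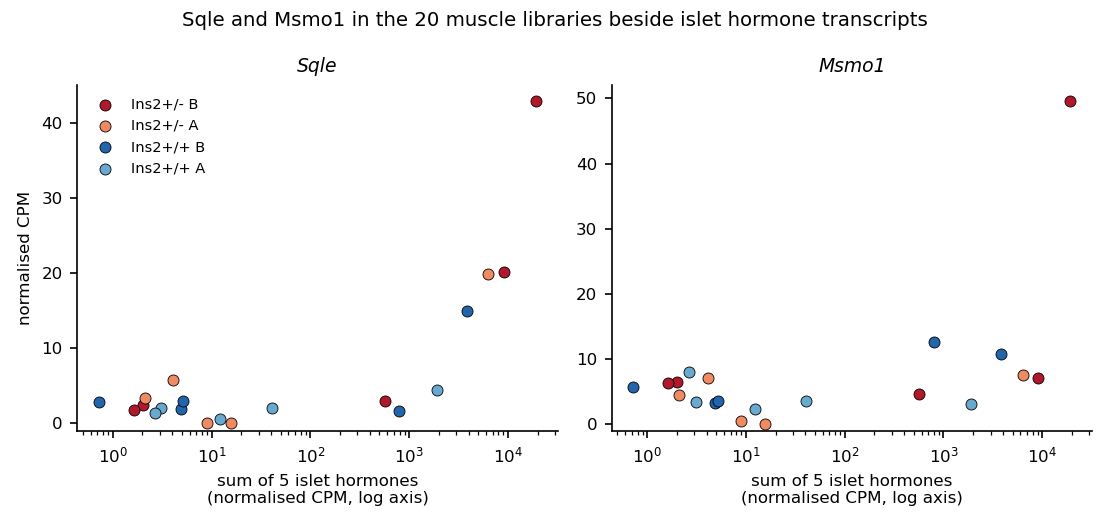
Normalised CPM of Sqle (left) and Msmo1 (right) (y axes) against the summed normalised CPM of 5 islet hormones (x axes, log scale) in the 20 muscle libraries, by genotype and diet. The 4 muscles with the most islet hormone transcripts, from 3824 CPM up, hold the 4 highest Sqle values, 15.0 to 43.0 CPM, and Msmo1 is highest in 1 of them, at 49.7 CPM.

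Insig1 had the lowest p for diet in muscle. It had 20.0, 48.4, 12.5, 26.5 and 24.0 CPM in Ins2+/- muscles on diet B, against 13.2, 13.5, 22.6, 22.6 and 18.3 CPM in those on diet A. In Ins2+/+ muscles it had 18.9, 21.4, 15.5, 20.5 and 22.8 CPM on diet B, against 14.1, 12.7, 4.19, 12.0 and 15.1 CPM on diet A. There every library on diet B was above every one on diet A, for 1 of 30 members and for 0.376% of all genes (45 of 11959). The averaged log2 ratio of diet B over diet A was 0.65 ± 0.24 (adjusted p = 0.999), and that of Ins2+/- over Ins2+/+ was 0.49 ± 0.24. Over the alternatives other than single libraries left out, the diet ratio lay between 0.42 and 0.71. The genotype ratio lay between 0.06 and 0.63 there. Muscle Ins2+/- B 2, the highest, held 49.71% of its counts on mitochondrial genes and 9164 CPM of islet hormone transcripts.

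Msmo1 had 6.50, 7.05, 4.61, 49.7 and 6.43 CPM in Ins2+/- muscles on diet B, against 4.53, 7.62, 0, 0.559 and 7.10 CPM in those on diet A. In Ins2+/+ muscles it had 5.68, 12.6, 10.8, 3.25 and 3.62 CPM on diet B, against 3.44, 3.63, 3.07, 2.34 and 8.02 CPM on diet A. Muscle Ins2+/- B 4 stood far above all others. The averaged log2 ratio of diet B over diet A, 1.26 ± 0.53, was 0.66 without that muscle and 0.27 without the muscles that held islet transcripts. Idi1 had 10.1, 32.9, 12.0, 9.10 and 8.77 CPM in Ins2+/- muscles on diet B, against 14.0, 12.3, 1.97, 12.8 and 7.92 CPM in those on diet A. In Ins2+/+ muscles Idi1 had 14.6, 5.46, 18.5, 18.5 and 17.4 CPM on diet B, against 12.1, 7.79, 6.42, 7.31 and 7.35 CPM on diet A, and its averaged log2 ratio was 0.68 ± 0.31 with overlapping ranges.

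Mylip had 20.98, 29.2, 19.7, 24.0 and 21.6 CPM in Ins2+/- muscles on diet B, against 18.1, 15.7, 18.7, 9.22 and 4.10 CPM in those on diet A, with no overlap, for 1 of 30 members and for 0.284% of all genes (34 of 11959). In Ins2+/+ muscles it had 9.17, 16.0, 22.3, 10.4 and 23.7 CPM on diet B, against 13.8, 14.5, 16.2, 14.6 and 12.9 CPM on diet A, where the ranges overlapped. Its log2 ratio was 0.82 ± 0.34 in Ins2+/- muscles (adjusted p = 0.951). Sc5d had 11.8, 19.3, 11.8, 11.6 and 7.95 CPM in Ins2+/- muscles on diet B, against 10.1, 13.0, 41.3, 21.8 and 19.9 CPM in those on diet A. In Ins2+/+ muscles Sc5d had 9.76, 5.46, 8.20, 3.91 and 31.6 CPM on diet B, against 14.3, 21.6, 18.996, 16.4 and 18.3 CPM on diet A. The averaged log2 ratio of Sc5d was -0.66 ± 0.32, below 0 and not past the test.

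After Sqle and Insig1, Lss and Fdft1 had the lowest p for genotype in muscle. Lss had 9.44, 9.40, 4.46, 13.2 and 3.39 CPM in Ins2+/- muscles on diet B and 3.54, 8.68, 10.8, 16.5 and 3.55 CPM in those on diet A, against 4.08, 0, 5.86, 3.25 and 7.004 CPM in Ins2+/+ muscles on diet B and 4.65, 2.34, 3.91, 0 and 6.68 CPM in those on diet A (1.09 ± 0.55). Fdft1 had 71.4, 22.1, 73.9, 46.3 and 59.5 CPM in Ins2+/- muscles on diet B and 61.7, 56.4, 33.4, 60.3 and 56.0 CPM in those on diet A, against 73.5, 58.8, 50.6, 88.5 and 90.4 CPM in Ins2+/+ muscles on diet B and 65.6, 65.4, 80.7, 63.4 and 56.3 CPM in those on diet A (-0.34 ± 0.18). The ranges overlapped for both genes. Scap had 20.7, 9.40, 14.2, 43.0 and 14.7 CPM in Ins2+/- muscles on diet B and 16.0, 22.7, 17.7, 20.1 and 21.3 CPM in those on diet A, against 18.8, 12.2, 17.8, 9.44 and 13.1 CPM in Ins2+/+ muscles on diet B and 14.1, 15.1, 18.4, 19.6 and 12.0 CPM in those on diet A (0.39 ± 0.23). Tm7sf2 had 4.80, 8.46, 2.19, 1.66 and 6.90 CPM in Ins2+/- muscles on diet B and 2.69, 2.63, 10.8, 7.82 and 3.28 CPM in those on diet A, against 4.95, 2.52, 0.469, 4.23 and 1.58 CPM in Ins2+/+ muscles on diet B and 2.93, 3.89, 6.15, 0.292 and 0.668 CPM in those on diet A (0.86 ± 0.56). Muscle Ins2+/- B 4, rich in islet and acinar transcripts, was the highest for Scap, and the ranges overlapped for both genes.

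The diet difference in liver was set against that in muscle in a fit over all 39 libraries. No member was called by edgeR (0 of 30; background 0.0% of 13714 genes), and DESeq2 called 0 and limma-voom 0. At an unadjusted p below 0.05 stood 8 members, against 702 of 13714 genes. Idi1 (-1.26 ± 0.34, adjusted p = 0.366) and Msmo1 (-1.63 ± 0.48, adjusted p = 0.441) had the lowest p. Over the alternatives other than single libraries left out, these lay between -1.46 and -0.91 for Idi1 and between -1.88 and -0.84 for Msmo1. The averaged estimates of both genes were below 0 in liver and above 0 in muscle. Among the same alternatives the muscle estimates were as small as 0.30 for Idi1 and 0.27 for Msmo1. For the genotype difference 0 of 30 members were called by edgeR (background 0.0%), and DESeq2 called 0 and limma-voom 0. At an unadjusted p below 0.05 stood 5 members, against 676 of 13714 genes. Insig1 (-0.77 ± 0.26) and Lss (-1.29 ± 0.45) had the lowest p there. The labels do not tie a liver to a muscle of the same mouse, and these fits treat them as separate.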

How the data were processed

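RNA sequencing libraries (TruSeq RNA v2, 400 ng of RNA, not stranded) were sequenced on 2 HiSeq2500 rapid-run lanes, per the labels; which library ran on which lane is not given in the sources used here. The deposited values are estimated counts per gene from kallisto 0.42.3 on GRCm38, per the submitters' processing notes, which also name DESeq2. GENCODE M21 gave symbols for 46005 of 46517 IDs (98.9%), and the others held 0.264% of counts. The estimated counts were rounded and tested with edgeR 4.0.16 in R 4.3.3 (TMM scaling, filterByExpr, quasi-likelihood test, Benjamini-Hochberg adjustment over all genes). Within a tissue the 4 groups shared 1 estimate of the spread, and tissues were compared in 1 fit of all 39 libraries. The SE is the log2 ratio divided by the square root of F. The analysis was tested on simulated counts.

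The members and lists were chosen with earlier results of these data known. All 30 members are named, with the value of every library for those called within a tissue and for the 6 with the lowest p in the liver and muscle comparisons of genotype and diet; of the other lists up to 2 genes of lowest p are named. Members without overlap between groups were named after their values were seen. A count of 3 was taken as the limit that a count of 0 allows, 0.0553 to 2.33 CPM in liver and 0.219 to 2.83 CPM in muscle. Alternatives were RLE and upper-quartile scaling, no filter, a filter of 1 CPM in 4 libraries with a mean count of 20, a replicate block, 1 surrogate variable (sva 3.50.0), limma-voom (limma 3.58.1), DESeq2 1.42.0, an adjusted p below 0.1, libraries numbered 1 left out, libraries with islet transcripts left out, the compared groups alone, livers Ins2+/- B 2 and B 3 summed, and each library left out.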

Additional observations from a re-analysis of the deposited data

Results flagged for a closer look

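In 28 of the 240 groups of 4 or 5 libraries (30 members, 8 groups) 1 library stood apart from the rest by more than Dixon's 95% critical value. Independent, normally distributed values pass it in about 1 group in 20. These are untransformed CPM of genes from the same libraries, so the count cannot be judged against that rate. Values are normalised CPM, with the nearest other library of the group in brackets.

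In liver, 8 of the 12 values belonged to 2 libraries. Liver Ins2+/- B 5 was above the other Ins2+/- livers on diet B for Hmgcs1 at 311 CPM (nearest 153), Idi1 at 192 CPM (nearest 109), Cyp51 at 105 CPM (nearest 64.3) and Ebp at 161 CPM (nearest 147). Liver Ins2+/+ A 3 was above the other Ins2+/+ livers on diet A for Acat2 at 123 CPM (nearest 82.0), Pmvk at 71.0 CPM (nearest 37.3), Ebp at 211 CPM (nearest 180.0) and Sc5d at 416 CPM (nearest 262). The others were Ebp, low in Ins2+/- A 2 at 161 CPM (nearest 187), Tmem97, high in Ins2+/- A 1 at 97.0 CPM (nearest 69.9), Srebf2 in Ins2+/+ B 2 at 52.7 CPM (nearest 50.4) and Npc2, low in Ins2+/+ A 2 at 62.9 CPM (nearest 75.4).

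In muscle, Ins2+/- B 4, the library with the most islet and acinar transcripts, was high for Msmo1 at 49.7 CPM (nearest 7.05), Fdps at 50.5 CPM (nearest 23.6) and Srebf2 at 42.2 CPM (nearest 15.7). Muscle Ins2+/- B 2 was high for Pmvk at 15.0 CPM (nearest 7.45) and Idi1 at 32.9 CPM (nearest 12.0). Muscle Ins2+/- A 3 was low for Fdps, listed at 0 CPM (nearest 20.1), and Fdft1, at 33.4 CPM (nearest 56.0), and high for Npc1, at 95.4 CPM (nearest 36.9). Muscle Ins2+/- A 2 was high for Sqle at 19.9 CPM (nearest 5.74) and Tmem97 at 5.13 CPM (nearest 1.42). Among Ins2+/+ muscles, Sqle was high in B 3 at 15.0 CPM (nearest 2.94), Hsd17b7 in B 2 at 31.1 CPM (nearest 16.3), Sc5d in B 5 at 31.6 CPM (nearest 9.76), Idi1 in A 1 at 12.1 CPM (nearest 7.79) and Msmo1 in A 5 at 8.02 CPM (nearest 3.63), and Insig1 was low in A 3 at 4.19 CPM (nearest 12.0). The causes were not tested.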

How the results depend on the processing

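In Ins2+/- livers 1 member was called for diet, and 2 with a replicate block, 14 by limma-voom, 8 by DESeq2, 3 at an adjusted p below 0.1, 4 without the libraries numbered 1, 2 with the compared groups alone, and 0 without livers that held islet transcripts or with livers B 2 and B 3 summed. Leaving out each library gave 0 to 9. For diet averaged over the genotypes 0 were called, and 2 with no filter, 4 with the replicate block, 3 with a surrogate variable, 10 by limma-voom, 7 by DESeq2 and 5 at an adjusted p below 0.1, with 0 to 7 when each library was left out. The 7 came without liver Ins2+/- B 5, 4 without Ins2+/+ A 2 and 3 without Ins2+/- A 1. For genotype on diet B limma-voom called 1. The share of all genes called stands above for DESeq2 and limma-voom, and for diet in Ins2+/- livers without liver Ins2+/- B 5. The counts under the other alternatives stand without that share, so they do not show whether the members moved more than all genes. The causes were not tested.

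Of the log2 ratios of single members that the text or a plot gives, 4593 values under an alternative kept their direction and their side of the threshold, 81 gained and 12 lost a call, and 28 had the other sign, none of them past a test. They follow, with the reported estimate in brackets. For diet in Ins2+/- livers, Insig1 (-0.11) gave 0.022 without livers that held islet transcripts. Mbtps1 (0.0021) gave -0.0032 with RLE scaling, -0.0056 with upper-quartile scaling, -0.0058 without livers numbered 1 and -0.043 to 0.036 as each library was left out. For diet in Ins2+/+ livers, Hmgcs1 (-0.21) gave -0.34 to 0.014 as each library was left out. Pmvk (-0.23) gave -0.36 to 0.10 as each library was left out. Mvd (-0.44) gave 0.0090 without livers that held islet transcripts. Fdft1 (0.0044) gave -0.089 to 0.10 as each library was left out. Lss (-0.12) gave -0.25 to 0.071 as each library was left out. Ebp (-0.028) gave -0.061 to 0.042 as each library was left out. Sc5d (0.047) gave -0.00029 without livers numbered 1, -0.0025 without livers that held islet transcripts and -0.091 to 0.21 as each library was left out. Tmem97 (-0.090) gave 0.047 with the replicate block, 0.10 without livers numbered 1, 0.030 without livers that held islet transcripts and -0.18 to 0.10 as each library was left out. Npc2 (0.019) gave -0.039 to 0.059 as each library was left out.

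The labels do not say that a shared replicate number means a shared animal, and not every same-numbered pair correlated above 0.1: livers gave -0.221 to 0.262 and muscles -0.0994 to 0.255. In 19 of 54 liver and 31 of 60 muscle matches the own number gave the best correlation. Each library enters several of these matches, and how many would match without any pairing was not computed. The counts are a hint from the data and not from the design, so the fits with the replicate block stand as alternatives. In muscle several members had 0 counts in single libraries.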
